A study of Mus musculus with 8 samples.

Results

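Cytosolic ribosomal protein genes were taken from an expression table of mouse lymphoma cells by symbol. A symbol of Rpl or Rps and a number, with or without a paralog letter, was accepted, as were Rpsa, Rplp0, Rplp1 and Rplp2. Of 84 symbols that matched, 81 had a mean of at least 1 FPKM (fragments sequenced per kilobase of transcript, relative to the size of the library) over 8 libraries and are described here. They comprise 48 genes of the large and 33 of the small subunit, out of 25477 loci listed and 11417 tested. Fau and Gnb2l1, which also encode ribosomal proteins, carry other names and are given separately.

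The cells came from mouse spleen and were sorted for B220, a surface antigen of B cells, and for green fluorescent protein. Those of 4 libraries carried a short hairpin RNA against Crebbp, a histone acetyltransferase (shCrebbp), and those of the other 4 carried a scramble hairpin. Library names carry 1 of 3 prefixes, AO228 for shCrebbp 1 and 2, AO229 for shCrebbp 3 and 4 and AO227 for every scramble library, and what a prefix marks is not given in the sources used here. The labels give no strain, age or founding lesion, and they do not say whether the libraries of a group came from separate animals. The p-values therefore measure the spread between these libraries, which may be technical.

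Crebbp itself measured 18.9, 26.6, 23.4 and 19.3 FPKM in shCrebbp libraries 1 to 4, against 33.7, 22.9, 21.3 and 25.8 FPKM in scramble libraries 1 to 4, so the groups overlapped for the targeted gene. All 7 B cell markers examined were at or over 1 FPKM, and their summed level was 2615 to 3301 FPKM in shCrebbp and 2455 to 2944 FPKM in scramble libraries. Plasma cell markers summed to 412 to 1555 FPKM in shCrebbp and 1042 to 2335 FPKM in scramble libraries, with all 5 at or over 1 FPKM. The sum for macrophage and monocyte markers, of which 4 of 7 reached 1 FPKM, was 227 to 377 FPKM in shCrebbp and 308 to 443 FPKM in scramble libraries. Most of this sum came from Cd68, whose locus is merged with Eif4a1 and Senp3. That locus alone measured 219 to 365 FPKM in shCrebbp and 274 to 423 FPKM in scramble libraries, so the sum says little of macrophage RNA. T cell markers (2 of 5 at 1 FPKM, 5.61 to 13.5 against 3.66 to 12.6 FPKM), erythroid markers (3 of 5, 14.2 to 30.3 against 4.23 to 27.2 FPKM) and neutrophil markers (1 of 5, 0 to 4.18 against 0.731 to 4.44 FPKM, with Elane at 0 in every library) were low, shCrebbp given before scramble. In bulk RNA, fewer cells of a type and less RNA per cell cannot be told apart.

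The cytosolic ribosome joins a small subunit, which reads the messenger RNA, to a large subunit, which makes the peptide bond and carries the exit tunnel. Each subunit is built on ribosomal RNA from proteins that are mostly present in 1 copy, so the cell needs them in like amounts. In mammals their messenger RNAs begin with a terminal oligopyrimidine (TOP) tract, a C followed by a run of C and T at the transcription start, through which mTOR signalling sets how well they are translated. The FPKM values here measure RNA abundance and not that translation.

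The sequences around the annotated start of 8 genes that recur in the results are given to show where runs of C and T lie, which differed between them. Each runs 5′ to 3′ on the gene's strand over 80 bases, 50 before the annotated start and 30 from it. They are RefSeq sequences of build GRCm38.p6, the assembly called mm10, at chr4:136053364-136053443 (minus strand) for Rpl11, chr14:18270957-18271036 (minus strand) for Rpl15, chr7:45718021-45718100 (plus strand) for Rpl18 and chr3:28805458-28805537 (plus strand) for Rpl22l1. The others lie at chr11:114668530-114668609 (plus strand) for Rpl38, chr4:86857338-86857417 (minus strand) for Rps6, chr3:90213619-90213698 (minus strand) for Rps27 and chr9:66946036-66946115 (plus strand) for Rps27l. Capitals mark the longest run of C and T within 10 bases before and 30 after the start.
Rpl11: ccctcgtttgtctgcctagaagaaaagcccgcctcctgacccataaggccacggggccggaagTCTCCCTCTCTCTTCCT
Rpl15: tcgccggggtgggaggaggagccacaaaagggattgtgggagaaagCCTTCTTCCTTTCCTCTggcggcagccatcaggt
Rpl18: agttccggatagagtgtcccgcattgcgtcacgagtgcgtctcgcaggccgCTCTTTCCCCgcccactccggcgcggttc
Rpl22l1: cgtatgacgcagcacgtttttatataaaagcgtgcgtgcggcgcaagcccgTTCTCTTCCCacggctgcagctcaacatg
Rpl38: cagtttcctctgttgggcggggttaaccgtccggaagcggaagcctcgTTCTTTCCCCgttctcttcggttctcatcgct
Rps6: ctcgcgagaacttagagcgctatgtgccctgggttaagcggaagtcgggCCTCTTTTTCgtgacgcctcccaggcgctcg
Rps27: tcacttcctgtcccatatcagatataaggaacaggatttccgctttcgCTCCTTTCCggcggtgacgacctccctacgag
Rps27l: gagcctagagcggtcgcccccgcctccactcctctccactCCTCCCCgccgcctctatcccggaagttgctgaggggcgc

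In Rpl15 the run is 17 bases long and begins 4 bases before the annotated start. In Rpl18 and Rpl22l1 a run of 10 bases begins at base 2, in Rps6 and Rpl38 a run of 10 bases spans the start, and in Rps27 a run of 9 does so. The 17 bases of Rpl11 begin only at base 14, after the letters CCGGAAG, and reach the end of the window, so the run may be longer. In Rps27l, the p53-induced copy of Rps27, the longest run within the window has 7 bases and lies before the start. It is the shortest of the 8 as counted within the window, but C and T continue directly upstream of the window. The locus in the expression table begins at the annotated start for Rpl18, Rps6 and Rps27. It begins 7 bases upstream for Rpl22l1, and for Rpl11 and Rps27l 22 and 32 bases downstream, inside the run of Rpl11. The loci of Rpl15 and Rpl38 extend much farther, beginning 60858 and 324054 bases upstream. Promoters of 60 of the 81 genes were in the table used, 71 in all, out of 32851 promoters of 300 bases. A run of at least 6 C or T in the window stood on the sense strand in 46 of the 71 (64.8%), against 35.2% of all promoters. The letters CCGGAAG, read by ETS factors, were found on either strand in 26 of 71 (36.6%), against 8.86% of all, and AAGATGGC, read by YY1, in 8 of 71 (11.3%), against 2.75%. These matches are descriptions of the sequence.

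Ribosomal protein RNAs were among the most abundant in these cells, and 36 of the 100 loci of highest mean level were members. Large subunit genes had a median of 1323 FPKM and small subunit genes of 1732 FPKM over the 8 libraries. Most lay close together, with 37 of 48 large and 25 of 33 small subunit genes within 2-fold of their median. Of the genes reported singly, the highest level was that of Rps27 at 8878 FPKM, followed by Rps20 at 3113, Rpl41 at 3028, Rps12 at 2705 and Rpl12 at 2602 FPKM. Rps27 encodes a zinc-binding small subunit protein, Rps20 a protein of the small subunit head, Rpl41 one of the shortest proteins known and Rpl12 a protein at the base of the stalk. At the low end stood the copies Rps4l at 2.76, Rpl7l1 at 21.0 and Rps27l at 53.6 FPKM, and then Rps16 at 158, Rpl22l1 at 159, Rps15a at 159 and Rpl22 at 171 FPKM.

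**Figure D1:**
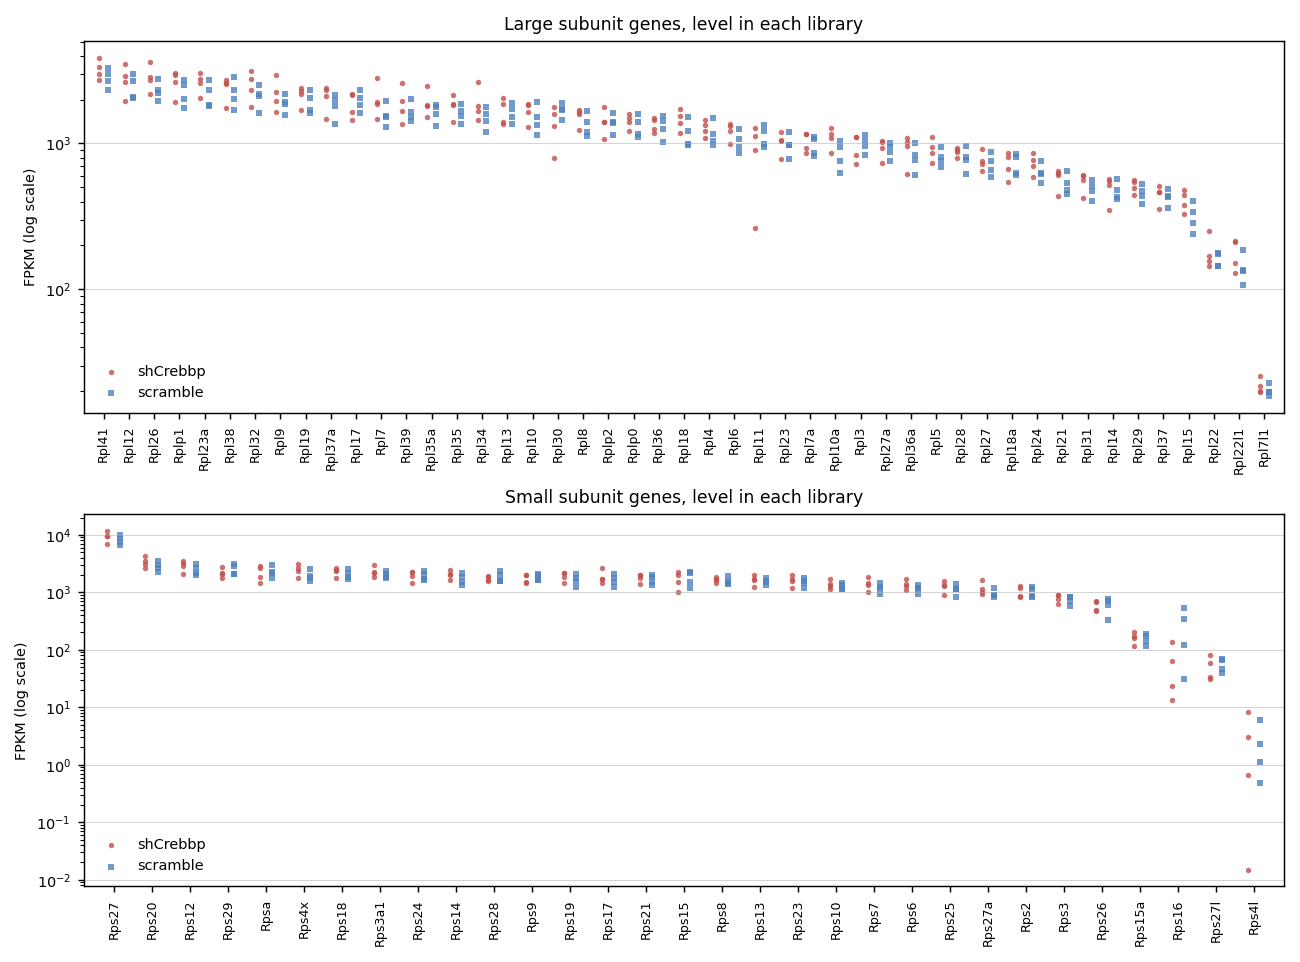
Level of each ribosomal protein gene reported singly in every library, in FPKM on a log scale, for large subunit genes (top) and small subunit genes (bottom) in order of their mean; red circles are shCrebbp and blue squares scramble libraries. Most genes form a band near 1000 FPKM in which the groups overlap, with the wide spread of Rps16 and Rps4l at the low end.

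Some of these values carry limits of the locus definition. The 81 genes rest on 80 loci of the table, and Rpl17, Rpl3 and Rpl30 are among those that share their locus with another gene name. For 13 genes the locus was over 3 times as long as the annotated gene, and their levels are levels of the locus. Among them are Rpl5, Rpl7a, Rpl15, Rpl31, Rpl38, Rps4l, Rps15 and Rps27a, and the locus of Rps4l thus says little of Rps4l itself. Processed pseudogenes named after the gene are annotated for 56 members, 288 in all, and how reads shared with them were assigned is not given in the sources used here. A small nucleolar RNA gene lies inside 30 members. The 3 symbols under 1 FPKM were copies of tissue-restricted use: Rpl10l was listed at 0 in all 8 libraries, Rpl3l at 0.580 FPKM in scramble 3 and at 0 elsewhere, and Rpl39l at 0.230 FPKM in shCrebbp 4, 0.671 in scramble 2, 1.38 in scramble 3 and 0 elsewhere.

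Compared between the groups, ribosomal protein genes were slightly higher in shCrebbp in most cases, and none passed the test. The difference in log2(FPKM + 1), shCrebbp minus scramble, was above 0 for 68 of the 81 genes, where 52% of all loci tested lay above 0, and for 67 and 70 under median-of-ratios scaling and quantile normalization. Its median was 0.16 over the 81 genes, 0.17 over the large subunit (43 of 48 above 0) and 0.11 over the small subunit (25 of 33 above 0), against 0.01 over all loci tested. Among the 464 other loci of at least 100 FPKM, 202 (43.5%) lay above 0, with a median of -0.06. By limma with Benjamini-Hochberg adjustment, 0 of 81 genes had an adjusted p under 0.05 (smallest 0.915), as did 0% of all loci tested. At an unadjusted p under 0.05 the count was again 0 of 81, against 5.02% of all loci, and no gene had groups that did not overlap, against 3.32% of all loci.

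The differences were small against the spread between libraries. For 77 of the 81 genes they were under 0.4 in size, and all 81 95% intervals held 0. For 76 genes the interval excluded a 2-fold difference either way. The median standard error was 0.22 for large and 0.23 for small subunit genes. The median moved by over 1.5 times with single libraries: it was 0.07 without scramble 1, 0.27 without shCrebbp 2, and 0.11 without shCrebbp 1 or without shCrebbp 4.

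**Figure D2:**
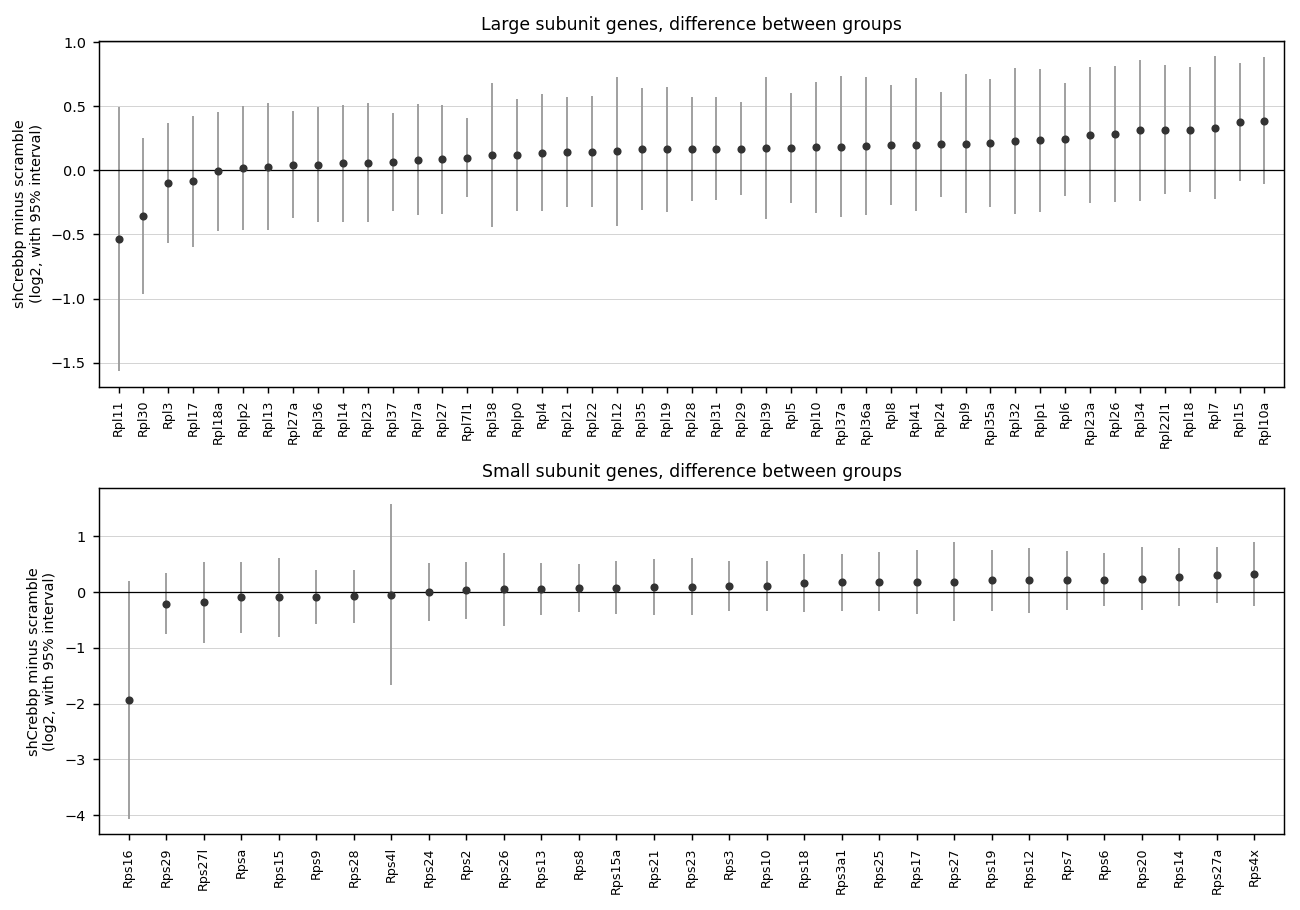
Difference of each gene reported singly between the groups, shCrebbp minus scramble in log2(FPKM + 1), with its 95% interval from limma, for the large subunit (top) and the small subunit (bottom) in order of the difference. Most points lie between 0 and 0.4, every interval crosses 0, and Rps16 lies far below the rest.

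The stalk of the large subunit, which recruits the translation factor GTPases, is built on Rplp0 with the acidic proteins Rplp1 and Rplp2. Rplp0, its scaffold, measured 1486, 1224, 1397 and 1580.1 FPKM in shCrebbp libraries 1 to 4, against 1115, 1164, 1583 and 1401 FPKM in scramble libraries 1 to 4. Rplp1 measured 3059.9, 1939, 2647 and 2936 FPKM in shCrebbp libraries 1 to 4, against 1748, 2014, 2739 and 2506 FPKM in scramble libraries 1 to 4. In both genes shCrebbp 2 was the lowest shCrebbp library, scramble 3 the highest scramble library, and the groups overlapped. Rplp2 measured 1788, 1078, 1394 and 1413 FPKM in shCrebbp libraries 1 to 4, against 1139, 1622, 1392 and 1401 FPKM in scramble libraries 1 to 4, again with overlap. The log2 differences were 0.12 ± 0.19 for Rplp0 (SE, limma adjusted p = 0.953), 0.23 ± 0.25 for Rplp1 (SE, limma adjusted p = 0.929) and 0.02 ± 0.22 for Rplp2 (SE, limma adjusted p = 0.991). That of Rplp2 was below 0, at -0.10 without shCrebbp 1 and -0.072 without scramble 1.

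Rpl5 and Rpl11 bind the 5S ribosomal RNA, and outside the ribosome this particle binds Mdm2, the ubiquitin ligase of p53. Rpl5 measured 1111, 732, 858 and 941 FPKM in shCrebbp libraries 1 to 4, against 686, 812, 953 and 760.1 FPKM in scramble libraries 1 to 4. Rpl11 measured 264, 905, 1282 and 1133 FPKM in shCrebbp libraries 1 to 4, against 948, 995, 1342 and 1217 FPKM in scramble libraries 1 to 4. For Rpl11 shCrebbp 1 was by far the lowest of the 8 libraries, the other 7 lay between 905 and 1342 FPKM, and in Rpl5 that same library was the highest. The log2 difference was 0.18 ± 0.19 for Rpl5 (SE, limma adjusted p = 0.932) and -0.54 ± 0.46 for Rpl11 (SE, limma adjusted p = 0.915, two-sided exact permutation p = 0.457). Without shCrebbp 1, that of Rpl11 was -0.024.

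Rpl3 and Rpl10 frame the peptidyl transferase centre, and Rpl39 lines the exit tunnel. Rpl3 measured 718, 828, 1105 and 1109 FPKM in shCrebbp libraries 1 to 4, against 834, 966, 1143 and 1039 FPKM in scramble libraries 1 to 4. Rpl10 measured 1869, 1300.2, 1640.5 and 1832 FPKM in shCrebbp libraries 1 to 4, against 1150.4, 1332, 1912 and 1509 FPKM in scramble libraries 1 to 4. In Rpl3 the AO228 libraries (shCrebbp 1 and 2) were below every scramble library, and in Rpl10 all 4 shCrebbp libraries lay within the scramble range. Rpl39 measured 2605, 1359.7, 1679 and 1968 FPKM in shCrebbp libraries 1 to 4, against 1432, 1521, 2014 and 1651 FPKM in scramble libraries 1 to 4, with shCrebbp 1 the highest and shCrebbp 2 the lowest. On the log2 scale the groups differed by -0.10 ± 0.21 for Rpl3 (SE, limma adjusted p = 0.964), 0.18 ± 0.23 for Rpl10 (SE, limma adjusted p = 0.944) and 0.17 ± 0.25 for Rpl39 (SE, limma adjusted p = 0.947). The sign for Rpl3 turned to 0.023 without shCrebbp 1, 0.16 with only AO229 and 0.013 under quantile normalization.

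Rpl15, Rpl10a and Rpl18 were among the large subunit genes of smallest p-value. Rpl15, whose human gene is mutated in some patients with Diamond-Blackfan anaemia, an inherited failure of red cell formation, measured 482, 329, 377 and 447 FPKM in shCrebbp libraries 1 to 4, against 238, 287, 405 and 340.4 FPKM in scramble libraries 1 to 4. shCrebbp 1 and 4 were above every scramble library, while scramble 3 was above shCrebbp 2 and 3, and scramble 4 above shCrebbp 2. Rpl10a, of the mobile L1 stalk at the exit site for transfer RNA, measured 1154, 855, 1095 and 1283 FPKM in shCrebbp libraries 1 to 4, against 631, 754, 1044 and 949 FPKM in scramble libraries 1 to 4. Rpl18 measured 1713, 1184, 1384 and 1545 FPKM in shCrebbp libraries 1 to 4, against 990.4, 983, 1521 and 1218 FPKM in scramble libraries 1 to 4. In Rpl10a and Rpl18 scramble 3 and 4 again reached into the shCrebbp range, while scramble 1 and 2 were below every shCrebbp library. The log2 differences were 0.37 ± 0.20 for Rpl15 (SE, limma adjusted p = 0.915, two-sided exact permutation p = 0.143), 0.39 ± 0.22 for Rpl10a (SE, limma adjusted p = 0.915, two-sided exact permutation p = 0.143) and 0.32 ± 0.22 for Rpl18 (SE, limma adjusted p = 0.915, two-sided exact permutation p = 0.171). With 4 libraries against 4, the smallest two-sided p this permutation test can give is 0.0286.

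Rpl30, whose yeast protein binds its own transcript, measured 799.5, 1326, 1782 and 1599 FPKM in shCrebbp libraries 1 to 4, against 1451, 1728, 1886 and 1706 FPKM in scramble libraries 1 to 4. As in Rpl11, shCrebbp 1 was the lowest library, and the AO228 libraries lay below every scramble library. The log2 difference was -0.35 ± 0.27 (SE, limma adjusted p = 0.915), and -0.11 without shCrebbp 1. Rpl38, mutated in the Tail short mouse, measured 2727, 1752, 2586 and 2559 FPKM in shCrebbp libraries 1 to 4, against 1708, 2011, 2836 and 2344 FPKM in scramble libraries 1 to 4, a difference of 0.12 ± 0.25 (SE, limma adjusted p = 0.966). The groups overlapped, and the difference was -0.0016 without scramble 1. Rpl12, of the stalk base, measured 2744 ± 639 FPKM in shCrebbp and 2459 ± 472 FPKM in scramble libraries, and Rpl41 3236 ± 498 FPKM in shCrebbp and 2821 ± 426 FPKM in scramble libraries (SD, n = 4 each), with differences of 0.15 and 0.20 on the log2 scale (limma adjusted p = 0.955 and 0.940).

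On the small subunit, Rps6 is the substrate of the S6 kinases downstream of mTOR, and Rps14 and Rps19 are the genes lost in human 5q- syndrome and most often mutated in Diamond-Blackfan anaemia. Rps6 measured 1683, 1084, 1264 and 1399 FPKM in shCrebbp libraries 1 to 4, against 925, 1184, 1366 and 1166 FPKM in scramble libraries 1 to 4. Rps14 measured 2429.5, 1662, 2024 and 2108 FPKM in shCrebbp libraries 1 to 4, against 1358, 1506, 2182 and 1834 FPKM in scramble libraries 1 to 4. Rps19 measured 2169, 1429, 1875 and 2129 FPKM in shCrebbp libraries 1 to 4, against 1214, 1542, 2089 and 1771 FPKM in scramble libraries 1 to 4. In these 3 genes shCrebbp 1 was the highest and scramble 1 the lowest of the 8 libraries. The log2 differences were 0.22 ± 0.21 for Rps6 (SE, limma adjusted p = 0.919), 0.27 ± 0.23 for Rps14 (SE, limma adjusted p = 0.915) and 0.21 ± 0.24 for Rps19 (SE, limma adjusted p = 0.937). Rps20 averaged 3378 ± 727 FPKM in shCrebbp and 2849 ± 500.4 FPKM in scramble libraries and Rps27 9464 ± 1887 FPKM in shCrebbp and 8291 ± 1539 FPKM in scramble libraries (SD, n = 4 each), with overlap and differences of 0.24 and 0.19 on the log2 scale (limma adjusted p = 0.929 and 0.954).

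Rps16, whose tail reaches the transfer RNA in the peptidyl site, had the largest difference of the 81 genes and also the largest spread. It measured 13.4, 64.6, 136 and 23.8 FPKM in shCrebbp libraries 1 to 4, against 338, 30.5, 119.9 and 534 FPKM in scramble libraries 1 to 4. The values of each group spread widely, and scramble 2 and 3 lay within the shCrebbp range. The log2 difference was -1.94 ± 0.94 (SE, limma adjusted p = 0.915, two-sided exact permutation p = 0.143), with a 95% interval of -4.07 to 0.19. The SD of log2(FPKM + 1) within groups was 1.64, against 0.27 for Rps14. Rpsa, known also as a laminin receptor, measured 2813, 1449, 1846 and 2675 FPKM in shCrebbp libraries 1 to 4, against 2157, 2225, 3034 and 1808 FPKM in scramble libraries 1 to 4. Its difference of -0.10 ± 0.28 (SE, limma adjusted p = 0.978) turned to 0.086 without shCrebbp 2 and 0.044 without scramble 3.

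**Figure D3:**
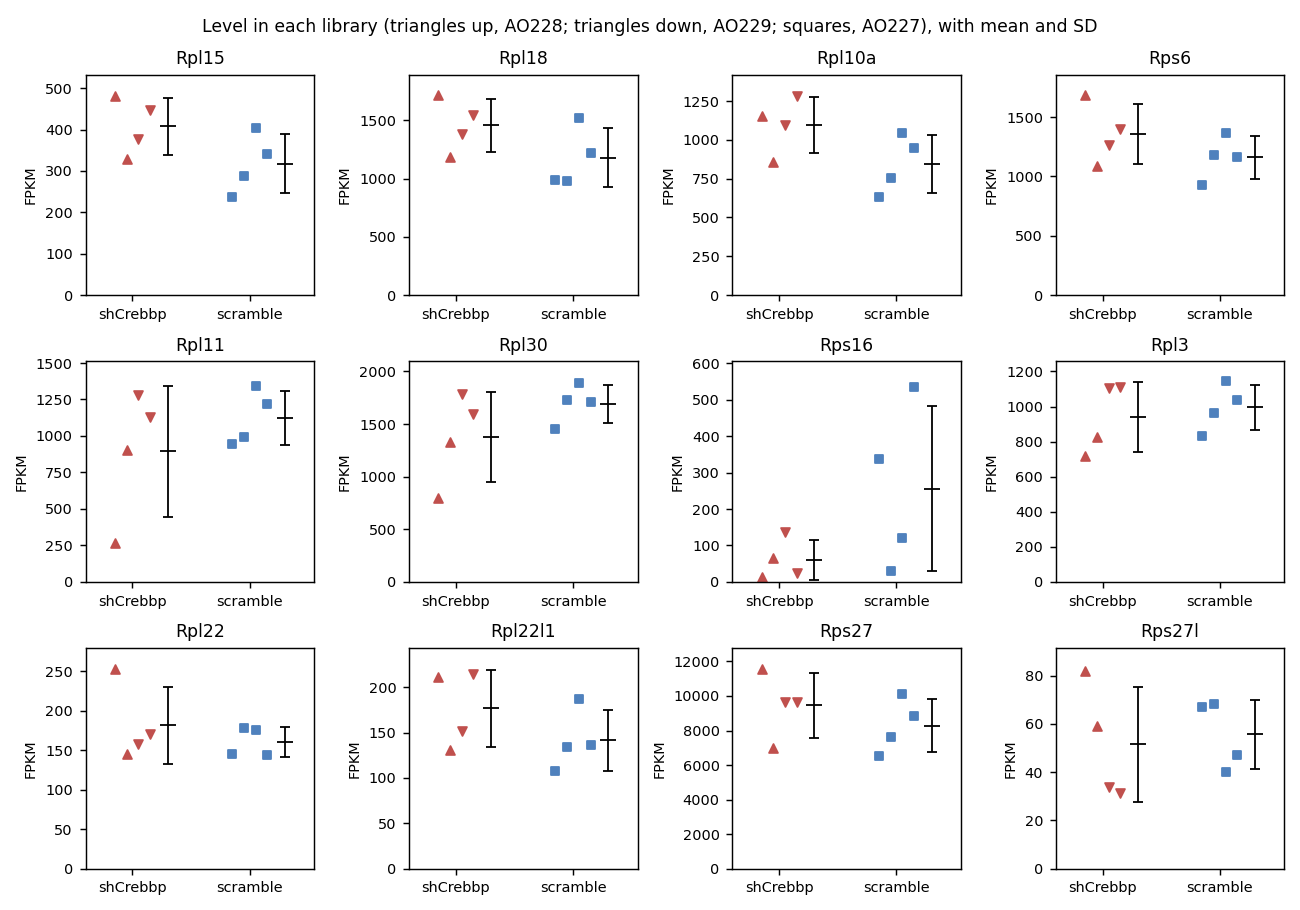
Level of 12 genes in each library, in FPKM, with the mean and SD of each group (n = 4); upward triangles are AO228, downward triangles AO229 (both shCrebbp) and squares AO227 (scramble). shCrebbp 1 is lowest for Rpl11 and Rpl30 and highest for Rpl15 and Rpl18, and the AO229 libraries are below all scramble libraries for Rps27l.

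The paralogs differed in their level relative to the gene they are named after. Rpl22l1 was nearly as abundant as Rpl22, a protein needed in lymphocyte development, per length. Its FPKM as a percentage of that of Rpl22 was 83.5, 89.5, 96.2 and 126% in shCrebbp libraries 1 to 4, against 74.2, 75.2, 106 and 94.99% in scramble libraries 1 to 4, or 98.9 ± 19.1% in shCrebbp and 87.7 ± 15.8% in scramble libraries (SD, n = 4 each), and the groups overlapped. Rpl22 measured 252, 146, 157 and 169.9 FPKM in shCrebbp libraries 1 to 4, against 145, 178, 176 and 144 FPKM in scramble libraries 1 to 4. Rpl22l1 measured 211, 130.4, 151 and 215 FPKM in shCrebbp libraries 1 to 4, against 108, 134, 187 and 137 FPKM in scramble libraries 1 to 4. The log2 differences were 0.15 ± 0.19 for Rpl22 (SE, limma adjusted p = 0.945) and 0.32 ± 0.22 for Rpl22l1 (SE, limma adjusted p = 0.915), and that of Rpl22 was -0.024 without shCrebbp 1.

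The other copies were rare beside their main form. As a percentage of the FPKM of Rps27, that of Rps27l was 0.708, 0.848, 0.350 and 0.324% in shCrebbp libraries 1 to 4, against 1.02, 0.894, 0.397 and 0.531% in scramble libraries 1 to 4. It measured 81.9, 59.1, 33.9 and 31.2 FPKM in shCrebbp libraries 1 to 4, against 67.0, 68.3, 40.1 and 47.1 FPKM in scramble libraries 1 to 4. The AO228 libraries stood on either side of scramble 1 and 2, and the AO229 libraries were below all 4 scramble libraries. The difference between the groups was -0.18 ± 0.32 (SE, limma adjusted p = 0.955). The FPKM of Rpl7l1 was 1.14 ± 0.294% in shCrebbp and 1.30 ± 0.104% in scramble libraries as a percentage of that of Rpl7 (SD, n = 4 each). The groups differed by a log2 value of 0.10 ± 0.14 for Rpl7l1 (SE, limma adjusted p = 0.946) and 0.33 ± 0.25 for Rpl7 (SE, limma adjusted p = 0.915). Rps4x, the main form of its protein, averaged 2455 ± 575 FPKM in shCrebbp and 1951 ± 415 FPKM in scramble libraries (SD, n = 4 each), a difference of 0.32 ± 0.26 (SE, limma adjusted p = 0.915). For the Rps4l locus the difference was -0.05 ± 0.72 (SE, limma adjusted p = 0.992), with values between 0.0150 and 8.36 FPKM in shCrebbp and 0.489 and 6.01 FPKM in scramble libraries.

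Rps27a is made as a fusion to ubiquitin, while Fau encodes a ubiquitin-like fusion to Rps30 and Gnb2l1 encodes the Rack1 protein of the small subunit. Rps27a measured 1653, 944, 1012 and 1145 FPKM in shCrebbp libraries 1 to 4, against 839.9, 886, 1174 and 883 FPKM in scramble libraries 1 to 4, and scramble 3 stood above the other scramble libraries. Fau averaged 2635 ± 439.5 FPKM in shCrebbp and 2227 ± 349 FPKM in scramble libraries and Gnb2l1 1489 ± 211 FPKM in shCrebbp and 1224 ± 219 FPKM in scramble libraries (SD, n = 4 each). The log2 differences were 0.31 ± 0.22 for Rps27a (SE, limma adjusted p = 0.915), 0.24 ± 0.23 for Fau (SE, limma adjusted p = 0.919) and 0.29 ± 0.21 for Gnb2l1 (SE, limma adjusted p = 0.915). These 3 differences lay above 0, and none passed the test.

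Genes that act with the ribosome, in lists drawn up from general knowledge, had median log2 differences from -0.05 to 0.09. Of 18 translation factor and related genes that carry a TOP tract, 13 lay above 0, with a median of 0.09, and 0 passed. Eif3k, a subunit of initiation factor 3, averaged 211 ± 20.6 FPKM in shCrebbp and 171 ± 29.0 FPKM in scramble libraries (SD, n = 4 each here and below), a log2 difference of 0.31 ± 0.16 (SE, limma adjusted p = 0.915). Eif4b, a helper of the helicase Eif4a, averaged 71.6 ± 6.69 FPKM in shCrebbp and 81.8 ± 5.32 FPKM in scramble libraries, a difference of -0.19 ± 0.12 (SE, limma adjusted p = 0.915). Of 30 ribosome assembly genes, 11 lay above 0, with a median of -0.05, and 0 passed. Ltv1, a factor of small subunit maturation, averaged 20.3 ± 2.75 FPKM in shCrebbp and 27.4 ± 3.33 FPKM in scramble libraries, a difference of -0.42 ± 0.15 (SE, limma adjusted p = 0.915). Rrs1, which brings the 5S particle to the large subunit, averaged 4.62 ± 1.86 FPKM in shCrebbp and 7.61 ± 0.409 FPKM in scramble libraries, a difference of -0.69 ± 0.27 (SE, limma adjusted p = 0.915). For Ltv1, Rrs1 and Nop56, 3 of the 30, every shCrebbp library was below every scramble library, against 1.74% of all loci. Emg1, a methyltransferase of 18S ribosomal RNA, averaged 92.2 ± 19.9 FPKM in shCrebbp and 67.4 ± 9.67 FPKM in scramble libraries, a difference of 0.43 ± 0.18 (SE, limma adjusted p = 0.915), and was the 1 gene of the 30 with every shCrebbp library above every scramble library, against 1.58% of all loci.

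Of 15 genes of RNA polymerase I and 5S transcription, 8 lay above 0 (median 0.01), and 0 passed. Ubtf, the factor that opens the ribosomal DNA, had a difference of -0.25 ± 0.16 (SE, limma adjusted p = 0.915), and Taf1b of the selectivity factor one of 0.38 ± 0.21 (SE, limma adjusted p = 0.915). Of 16 genes of mTOR and TOP control 9 lay above 0 (median 0.02), and 0 passed. Rptor, the scaffold of mTOR complex 1, had a difference of -0.27 ± 0.18 (SE, limma adjusted p = 0.915). Of 11 tested chaperones of ribosomal proteins and ribosome-associated factors 4 lay above 0 (median -0.04), and 0 passed. Grwd1, the chaperone of Rpl3, averaged 9.81 ± 1.74 FPKM in shCrebbp and 13.9 ± 1.53 FPKM in scramble libraries (SD, n = 4 each), a difference of -0.47 ± 0.16 (SE, limma adjusted p = 0.915). Grwd1 and Bccip, 2 of the 11, had every shCrebbp library below every scramble library, against 1.74% of all loci. Beside these, all 5 plasma cell markers lay below 0, with a median of -0.76, and 0 of 5 passed. At an unadjusted limma p under 0.05 there were 3 of these 5, all lower, against 5.02% of all loci in either direction. For 1 of the 5 every shCrebbp library was below every scramble library, against 1.74% of all loci. Of the 4 macrophage and monocyte markers tested, 3 lay below 0, with a median of -0.80, and 0 passed. Ly6c2, a surface antigen of monocytes and plasma cells, averaged 6.61 ± 2.30 FPKM in shCrebbp and 18.1 ± 6.42 FPKM in scramble libraries (SD, n = 4 each), a difference of -1.32 ± 0.29 (SE, limma adjusted p = 0.811). In Ly6c2, 1 of these 4 markers, every shCrebbp library was below every scramble library, against 1.74% of all loci. Emr1, the F4/80 antigen of macrophages, averaged 2.16 ± 1.54 FPKM in shCrebbp and 5.92 ± 1.52 FPKM in scramble libraries (SD, n = 4 each), a difference of -1.23 ± 0.34 (SE, limma adjusted p = 0.915), with overlap. Of the 7 B cell markers, 5 lay above 0 (median 0.08), as did the 2 T cell, 3 erythroid and 1 neutrophil markers tested, and 0 passed. Cd79b was the 1 B cell marker with every shCrebbp library above every scramble library, against 1.58% of all loci. The part of these cell types in the differences of the ribosomal protein genes was not tested.

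Libraries of 1 group differed from each other across most of the members. Expressed as the deviation of each gene from its own mean in log2(FPKM + 1), the median over the 81 genes was 0.30, -0.23, 0.12 and 0.19 in shCrebbp libraries 1 to 4, against -0.31, -0.18, 0.21 and -0.02 in scramble libraries 1 to 4. Over all loci tested it lay between -0.02 and 0.02 in every library. Over the other loci of at least 100 FPKM it was 0.11, -0.17, -0.04 and -0.01 in shCrebbp libraries 1 to 4. In scramble libraries 1 to 4 it was -0.04, 0.02, 0.15 and -0.05 over those loci. For the 81 genes shCrebbp 1 and scramble 3 were thus the highest libraries by the median, closely followed by shCrebbp 4. The lowest were scramble 1 and shCrebbp 2. Over the other loci of at least 100 FPKM shCrebbp 1 and scramble 3 were also the highest and shCrebbp 2 the lowest. shCrebbp 2 was below shCrebbp 1 for 72 of 81 genes, and scramble 3 above scramble 1 for 76. The share of loci listed at 0 was 46.0, 36.3, 33.2 and 43.8% in shCrebbp libraries 1 to 4, against 43.4, 51.8, 43.9 and 42.4% in scramble libraries 1 to 4. Rn45s, the ribosomal RNA precursor, measured 2729.8, 3889.5, 0 and 5959 FPKM in shCrebbp libraries 1 to 4, against 4046, 8798, 6789 and 9149 FPKM in scramble libraries 1 to 4. The part of depth and of residual ribosomal RNA in these deviations was not tested.

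Genes of a subunit followed each other across the libraries. The Pearson correlation of a gene with the mean of the other genes of its subunit, over 8 libraries that share depth and scaling, had a median of 0.89 for the large and 0.75 for the small subunit. It was over 0.9 for 26 of the 81 genes, of which 23 were among the 48 large and 3 among the 33 small subunit genes. It was under 0.5 for 12, 6 of each subunit. The lowest were Rps27l at -0.44, Rps16 at -0.34, Rpl11 at -0.21 and Rpl30 at -0.12. Without shCrebbp 1 the median over both subunits was 0.91, against 0.84 with it, and Rpl11 reached 0.86, Rpl30 0.67, Rpl3 0.95 and Rps15 0.90, while Rps27l stood at -0.86 and Rps16 at -0.04.

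Within shCrebbp 1 the members split. It was the highest of the 8 libraries for 43 genes and the lowest for 7, and 16 genes were below their own mean in it. The deviation there was -2.52 for Rps16, -1.81 for Rpl11, -0.90 for Rpl30, -0.69 for Rps15 and -0.41 for Rpl3, and 0.69 for Rpl7 and 0.68 for Rps27l at the other end. For Rps15, of the small subunit head, the level was 1030.2, 1501, 2231 and 1968 FPKM in shCrebbp libraries 1 to 4, against 1541, 1167, 2152 and 2263 FPKM in scramble libraries 1 to 4, a difference of -0.09 ± 0.32 (SE, limma adjusted p = 0.982). The 30 genes with a small nucleolar RNA gene inside had a median deviation of 0.25 in shCrebbp 1 and the 51 without one of 0.34, and their differences between the groups had medians of 0.10 (24 of 30 above 0) and 0.17 (44 of 51 above 0).

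**Figure D4:**
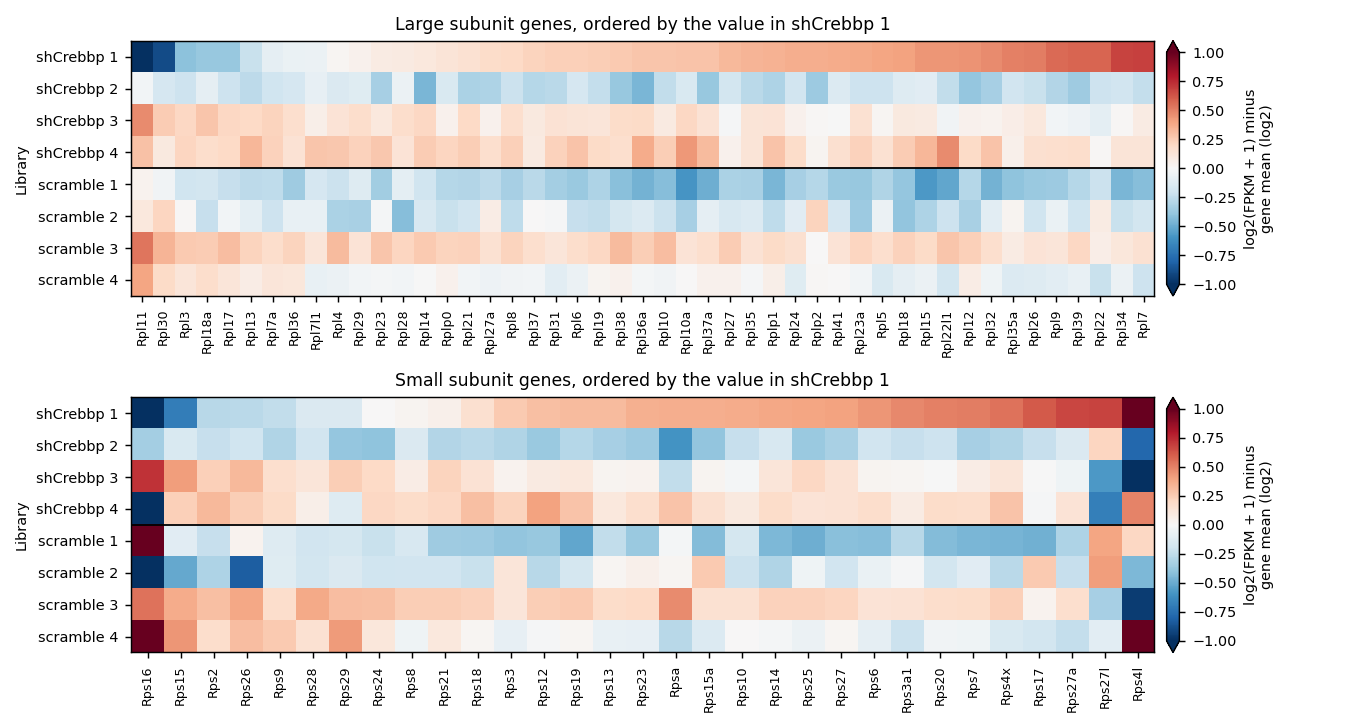
Deviation of each gene reported singly from its own mean in log2(FPKM + 1), red above and blue below, with 1 row per library (shCrebbp above the black line, scramble below it) and 1 column per gene in order of the value in shCrebbp 1; the scale is limited to 1 either way. shCrebbp 1 is blue for Rpl11, Rpl30, Rps16 and Rps15 and red for most other genes, and scramble 1 and shCrebbp 2 are pale blue across most genes.

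The AO229 and AO228 libraries, which share the scramble group as their control, were set against it in turn. AO229 lay above scramble for 76 of 81 genes (52.4% of all loci), with a median of 0.22, and for all 48 large subunit genes. AO228 lay above scramble for 56 of 81 (51.4% of all loci), with a median of 0.09. By limma with Benjamini-Hochberg adjustment, 0 of 81 genes passed against scramble in AO229 (0.0175% of all loci) and 0 of 81 in AO228 (0% of all loci). Compared directly, AO229 was above AO228 for 61 of 81 genes (50.6% of all loci), with a median of 0.15, but under quantile normalization for 37, with a median of -0.03. By limma with 3 prefixes, 0 of 81 genes passed an adjusted p of 0.05 between AO229 and AO228, against 1.28% of all loci. At an unadjusted p under 0.05 there were 2 of 81, against 16.4% of all loci.

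These 2 genes were Rpl11 and Rps27l. Rpl11 differed by 1.30 on the log2 scale, AO229 minus AO228 (limma adjusted p = 0.240), with means of 1208 FPKM in AO229 and 584 FPKM in AO228, 2 libraries each. Rps27l differed by -1.08 (limma adjusted p = 0.107), with 32.5 FPKM in AO229 and 70.5 FPKM in AO228. Neither passed. Both AO229 libraries were above every scramble library for 5 of 81 genes, Rpl10a, Rpl29, Rpl31 and Rpl7a among them, against 11.1% of all loci, and below every one for Rps27l (1 of 81, against 11.3%). Both AO228 libraries were below every scramble library for Rpl11, Rpl3, Rpl30 and Rps9 (4 of 81, against 9.36%) and above every one for 0 of 81 (9.57%). Each of these counts is a lower share of the 81 genes than of all loci.

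The ratio of large to small subunit RNA, and its spread across the libraries, depended on how the ratio was taken. Over the 44 large and 31 small subunit genes with a locus of their own, the ratio of summed FPKM, large over small, was 1.10, 1.10, 1.07 and 1.09 in shCrebbp libraries 1 to 4, against 1.04, 1.06, 1.04 and 1.04 in scramble libraries 1 to 4. Every shCrebbp library lay above every scramble library, with means of 1.09 ± 0.0161 in shCrebbp and 1.04 ± 0.0108 in scramble libraries (SD, n = 4 each). The sum is led by the most abundant genes, among them Rps27. Without Rps27 and Rps16 the ratio was 1.31 ± 0.0222 in shCrebbp and 1.25 ± 0.00993 in scramble libraries, again without overlap. Rps16 is not abundant and had the largest difference and spread of the members, and its removal here and below was not planned. The ratio of geometric means (without Rps4l) was 0.841, 0.811, 0.796 and 0.865 in shCrebbp libraries 1 to 4, against 0.726, 0.800, 0.777 and 0.729 in scramble libraries 1 to 4, with overlap. Without Rps16 as well it was 0.735 ± 0.0147 in shCrebbp and 0.706 ± 0.00640 in scramble libraries, without overlap. The ratio of medians was 0.771 ± 0.0297 in shCrebbp and 0.785 ± 0.0533 in scramble libraries, with overlap and in the other direction. No test was made, since the ratio is a score over members chosen with earlier results known.

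**Figure D5:**
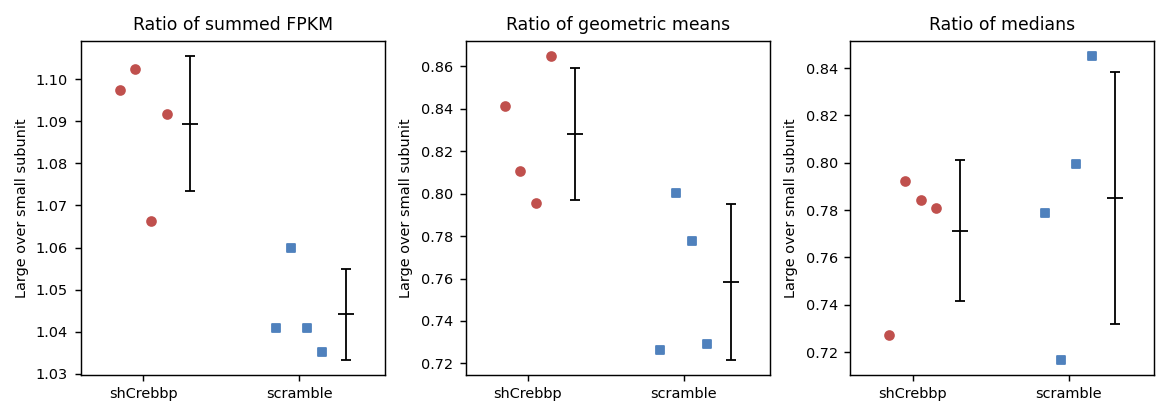
Ratio of large to small subunit genes in each library by summed FPKM (left), geometric mean (centre) and median (right), with the mean and SD of each group (n = 4); red circles are shCrebbp and blue squares scramble libraries, and the axes do not start at 0. The groups are apart by the sum and overlap by the geometric mean and the median.

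Genes with and without the start sequences had close median differences. The 42 genes with a run of at least 6 C or T, as in the sequences given above, had a median difference of 0.16 on the log2 scale (38 above 0), and the 18 without one also of 0.16 (15 above 0). For CCGGAAG the medians were 0.16 in 25 genes with it and 0.15 in 35 without. For AAGATGGC they were 0.17 in 6 genes with it and 0.16 in 54 without. These are descriptions with no test.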

How the data were processed

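The authors deposited 1 table of FPKM per locus and library, with the unit inferred from the values and locus identifiers, since the header names none. CASAVA 1.8, TopHat2, Cufflinks and mm10 are named in the submitters' processing notes, without parameters, and total RNA was depleted of ribosomal RNA per the labels' protocols. No counts are given, so depth is unknown and precision was read from replicates. Of 13 sample columns, 5 matched no sample and were not used. The row of highest mean was kept per symbol.

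The 11417 loci that reached 1 FPKM on average were fitted, as log2(FPKM + 1), with limma 3.58.1 in R 4.3.3 (mean trend, two-sided, Benjamini-Hochberg over all loci tested, threshold 0.05). A fold on this scale understates the change of low genes. The name prefixes were fitted as 3 coefficients, and single genes also by an exact permutation test over 70 divisions of the libraries. Coordinates count from 1, and gene spans, small nucleolar RNA genes and pseudogenes come from GENCODE. Named genes were the stalk, 5S particle, paralog and disease genes, and per subunit the 4 of smallest p, the 3 of highest and of lowest level and the 3 of highest spread. Nop56, Bccip, Ly6c2, Emr1, Rps9, Rps12, Rps15, Rps15a, Rpl29, Rpl31 and Rpl7a were named after their values were seen. Some genes that these rules pick are not reported here singly or in the figures, but enter every count over the 81. Members and gene lists were chosen with earlier results of these data known, so no list was tested. Alternatives covered pseudocounts, filters, scaling, the prior, library weights, locus choice, single prefixes and left-out libraries.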

Additional observations from a re-analysis of the deposited data

Results flagged for a closer look

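In 1 of 156 groups of 4 libraries (78 genes reported singly, in 2 groups), 1 library stood far from the other 3 by Dixon's ratio, which chance gives in about 1 group of 20, so 7.8 groups would be reached by chance alone. Rps27a was highest in scramble 3, at 1174 FPKM, while the other scramble libraries held 839.9 to 886 FPKM.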

How the results depend on the processing

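Across 22 alternative settings, 0 of the 81 genes passed an adjusted p of 0.05 by limma between shCrebbp and scramble. Between AO229 and AO228, 0 of 81 did so in the 3 settings tried for that comparison (median-of-ratios scaling, quantile normalization and a pseudocount of 0.1). The median difference of the 81 genes stayed above 0 throughout. With 1 library left out it ran between 0.07 (without scramble 1) and 0.27 (without shCrebbp 2), with 54 to 73 genes above 0. It was 0.07 without shCrebbp 1 and scramble 2 (62 above 0), an alternative chosen after seeing the data, 0.14 without scramble 2 and shCrebbp 3, 0.16 under median-of-ratios scaling and 0.21 under quantile normalization. The number of genes higher in AO229 than in AO228 was 37 under quantile normalization, against 61. Of 33 named genes, 21 kept their sign in every setting. Signs turned for Rpl3 (0.013 under quantile normalization, 0.030 with library weights, 0.16 with only AO229, 0.012 without shCrebbp 1 and scramble 2) and, with only AO229, for Rpl11 (0.11) and Rpl30 (0.0021). With only AO228 they turned for Rpl7l1 (-0.019), Rps27l (0.35), Rps4l (0.44) and Rpl38 (-0.00045). Without scramble 2 and shCrebbp 3 they turned for Rps27l (0.085) and Rps4l (0.29), and without shCrebbp 1 and scramble 2 for Rplp2 (-0.021), Rpl39 (-0.028) and Rpl12 (-0.060). With 1 library left out, Rplp2 ran from -0.10 to 0.14, Rpl3 from -0.19 to 0.023, Rpl22 from -0.024 to 0.24, Rpl38 from -0.0016 to 0.26, Rpsa from -0.23 to 0.086, Rps27l from -0.44 to 0.014 and Rps4l from -0.62 to 0.45. The cause was not tested. With no filter, 40.5% of all loci lay above 0, against 52.0%. Loci at 0 in every library, such as Rpl10l, then have a difference of 0 and count as not above 0, so the 2 shares are not alike. No paired analysis was possible because no label ties a shCrebbp library to a scramble library.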
